A study of Mus musculus with 2 samples.

Results

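Cd8a T cells without Cd8b1 are T cells that carry transcripts of the CD8 alpha chain and none of the CD8 beta chain. They were taken from each cell's own unique molecular identifiers (UMIs, each of which counts 1 captured transcript). A cell was included if at least 200 genes had a UMI, at most 20% of its UMIs came from mitochondrial genes, Cd3d, Cd3e and Cd3g together gave at least 2 UMIs, and Cd8a gave at least 1. It was left out if it held any UMI of Cd8b1, of the B cell genes Cd79a and Ms4a1, of the naive T cell factor Lef1, of the helper T cell genes Cd4 and Cd40lg, or of the interleukin-17 gamma-delta genes Cd163l1 and Il17a. In all, 122 of 14080 cells met these conditions. There were 87 such cells among 11155 in the library labelled CKO and 35 among 2925 in the library labelled WT, called the CKO and the WT library below. The cells were chosen by the measured UMIs of the genes named above, whose levels therefore only describe the choice.

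The series holds immune cells from the colon of C57BL/6 mice in which colitis, a bowel inflammation, had been set up experimentally, read by droplet-based 3′ single-cell RNA sequencing. Its title concerns the loss of RPA1 and necroptosis of T cells; the CKO library came from mice labelled CKO and the WT library from mice labelled WT, and both had colitis. What drove the knockout, which exons it removes, the colitis model, the animals' age and how many mice were pooled are not stated in the labels. Each group is a single library, so no test between groups was possible, and effects of the label cannot be told apart from those of animal, tissue preparation or sequencing library.

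The CD8 molecule pairs either an alpha with a beta chain or 2 alpha chains. The alpha-beta form is the coreceptor of conventional cytotoxic T cells and holds the receptor to class I MHC. The alpha-alpha form is known from T cells that live within the gut epithelium, where it is carried by cells with either a gamma-delta or an alpha-beta T cell receptor. Such intraepithelial lymphocytes are known for the integrin chain CD103 (Itgae), which binds epithelial E-cadherin, for granzymes, for receptors shared with natural killer cells, and for low levels of some surface molecules of circulating T cells, such as CD2, CD5 and CD28.

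The cells made up 10.3% of T cells (87 of 845, 95% interval 8.33 to 12.5%) in the CKO library and 9.07% (35 of 386, 6.40 to 12.4%) in the WT library. All intervals are exact 95% intervals (binomial for shares, Poisson for sums, conditional for ratios of sums) and cover counting error only. The shares of T cells overlapped in their intervals. The steps that led to the cells left 845, 640, 513, 426, 112 and 87 cells in the CKO library as Lef1, Cd4 or Cd40lg, and Cd163l1 or Il17a were removed, Cd8a was required and Cd8b1 was removed. The same steps left 386, 223, 176, 156, 61 and 35 cells in the WT library. The cells held a median of 5042 UMIs (1274 to 24577) and 1772 genes in the CKO library, and 4537 UMIs (1293 to 12760) and 1565 genes in the WT library. Summed over the cells, 532088 UMIs were available in the CKO library and 183078 in the WT library, and levels are given as CPM, the UMIs of a gene per 1000000 UMIs of such a sum.

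The deposited libraries held 11311 (CKO) and 2972 (WT) barcodes. The libraries shared 6 barcodes, none of them among the cells described here. Scrublet, a doublet caller, marked 2 of the 87 cells in the CKO library and 0 of the 35 in the WT library; over all cells it marked 213 (CKO) and 1 (WT), and marked cells were kept. Transcripts of other cell types were present. Neutrophil markers gave 1293 UMIs in 51 of 87 cells (804 of them in 1 cell) in the CKO library, against 65 UMIs in 7 of 35 cells (52 in 1 cell) in the WT library. Monocyte and macrophage markers gave 510 UMIs in 13 cells (CKO) and 7 UMIs in 4 cells (WT), and plasma cell markers gave 68 UMIs in 44 cells (CKO) and 186 UMIs in 29 cells (WT). B cell markers other than those of the gate gave 461 UMIs in 51 cells (CKO) and 64 UMIs in 22 cells (WT). At least 3 UMIs of neutrophil, monocyte and macrophage, plasma, mast, epithelial or fibroblast markers were held by 27 cells (31.0%) in the CKO library and 16 cells (45.7%) in the WT library. They are called below cells holding other lineages' markers. Cells with fewer than 3 such UMIs stayed, and the B cell markers were not used for this. Values without the cells left out rest on 60 cells in the CKO library and 19 in the WT library, and they are given below where they differ.

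Rpa1 (chr11:75298166-75348324 on the minus strand of GRCm38) encodes the largest subunit of replication protein A, the protein that covers exposed single strands of DNA. It had 52 UMIs in 39 of 87 cells (97.7 CPM) in the CKO library and 15 UMIs in 11 of 35 cells (81.9 CPM) in the WT library. The log2 ratio was 0.25 (-0.60 to 1.19), with an interval that held 0; the sign turned to -0.14 with at least 2 Cd8a UMIs per cell and to -0.23 without cells holding a UMI of Trdc, the delta receptor constant gene. A 3′ count does not show whether an upstream exon was deleted, so Rpa1 checks nothing about the label.

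The label of the cells was set beside 4 genes that led a cluster of this kind in an earlier description of these data, Cd8a, Itgae, Gzma and Klra5. These genes were picked from the same data, so their levels here and below are a description and no independent check. Cd8a (chr6:71373427-71379173, plus strand) was required by the choice and was at 556 CPM in the CKO library and 442 CPM in the WT library, with medians of 3 (CKO) and 2 (WT) UMIs per cell. The other 3 genes had UMIs in the CKO library in 63 (Itgae), 62 (Gzma) and 37 (Klra5) of 87 cells. They had UMIs in 15 (Itgae), 9 (Gzma) and 2 (Klra5) of 35 cells of the WT library. There, each was found in a minority of the cells, which goes against the marker set, and the cells are called here by the choice alone.

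Cd8b1 (chr6:71322788-71337494, plus strand) lies next to Cd8a, and a cell can lack a Cd8b1 UMI because few transcripts were captured. T cells chosen in the same way but with at least 1 Cd8b1 UMI, with or without Cd8a, are called Cd8b1 T cells below. They numbered 34 in the CKO library and 31 in the WT library, and 9 (CKO) and 10 (WT) of them held a single Cd8b1 UMI. At the Cd8b1 level of those cells, 365 CPM (CKO) and 389 CPM (WT), which the requirement of a UMI raises, a cell of the described cells' median depth would give 1.84 UMIs (CKO) or 1.76 UMIs (WT). Over the cells' own depths, 15.1 of 87 cells (CKO) and 6.51 of 35 cells (WT) would then show no Cd8b1 by counting alone. At this depth a single cell without a Cd8b1 UMI is not shown to lack the transcript.

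The values at the edges of the choice were as follows, as description only. The 19 cells of the CKO library with a single Cd8a UMI had 5940 CPM of Gzma, 440 CPM of Itgae, 225 CPM of Klra5 and 343 CPM of Trdc, and the 68 cells with more had 10111, 321, 283 and 422 CPM. Just outside it, 305 cells with no UMI of Cd8a or Cd8b1, called T cells without a coreceptor transcript below, had 1240 CPM of Gzma, 77.7 CPM of Itgae, 79.4 CPM of Klra5 and 224 CPM of Trdc. The 6 cells with Cd8a and a single Cd8b1 UMI had 3992 CPM of Gzma, 262 CPM of Itgae, 0 of Klra5 and 65.4 CPM of Trdc. Cells with a single Cd8a UMI were below those with more in Gzma, Klra5 and Trdc and above them in Itgae. The 14 cells of the WT library with a single Cd8a UMI had 1046 CPM of Gzma and the 21 with more had 3663 CPM, against 478 CPM in the 90 cells with none and 3921 CPM in the 8 cells with Cd8a and a single Cd8b1 UMI.

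The first question was which T cell receptor constant genes had transcripts in the cells, and the libraries differed in them. Such UMIs do not show which receptor a cell carries on its surface. Trdc (chr14:54142851-54148868, plus strand), the constant gene of the delta chain, had 217 UMIs in 68 of 87 cells in the CKO library, 78.2% (68.0 to 86.3%), against 2 UMIs in 2 of 35 cells in the WT library, 5.71% (0.700 to 19.2%). Trac (chr14:54220521-54224206, plus strand), the constant gene of the alpha chain, had 75 UMIs in 45 of 87 cells (51.7%) in the CKO library and 97 UMIs in 29 of 35 cells (82.9%) in the WT library. The levels were 408 CPM (CKO) and 10.9 CPM (WT) for Trdc, and 141 CPM (CKO) and 530 CPM (WT) for Trac. The log2 ratio of the CKO library over WT was 5.22 (3.35 to 8.28) for Trdc and -1.91 (-2.36 to -1.46) for Trac.

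Sorted by both genes, 32 of 87 cells (36.8%, 26.7 to 47.8%) in the CKO library had Trdc UMIs alone, 36 (41.4%) had both, 9 (10.3%) had Trac alone and 10 (11.5%) had neither. Of the 35 cells of the WT library, 0 had Trdc alone, for which the floor of 3 counts allows a share of up to 8.57% and the exact interval reached 10.0%, 2 had both, 27 (77.1%) had Trac alone and 6 had neither. Trdc marked most cells in the CKO library and Trac most cells in the WT library. Among cells with at least 3 UMIs of the pair, 25 of 43 in the CKO library drew at least 75% of them from Trdc, 3 drew at most 25% and 15 lay between. Of 17 such cells in the WT library, 0 were mostly Trdc, 16 were mostly Trac and 1 lay between.

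**Figure D1:**
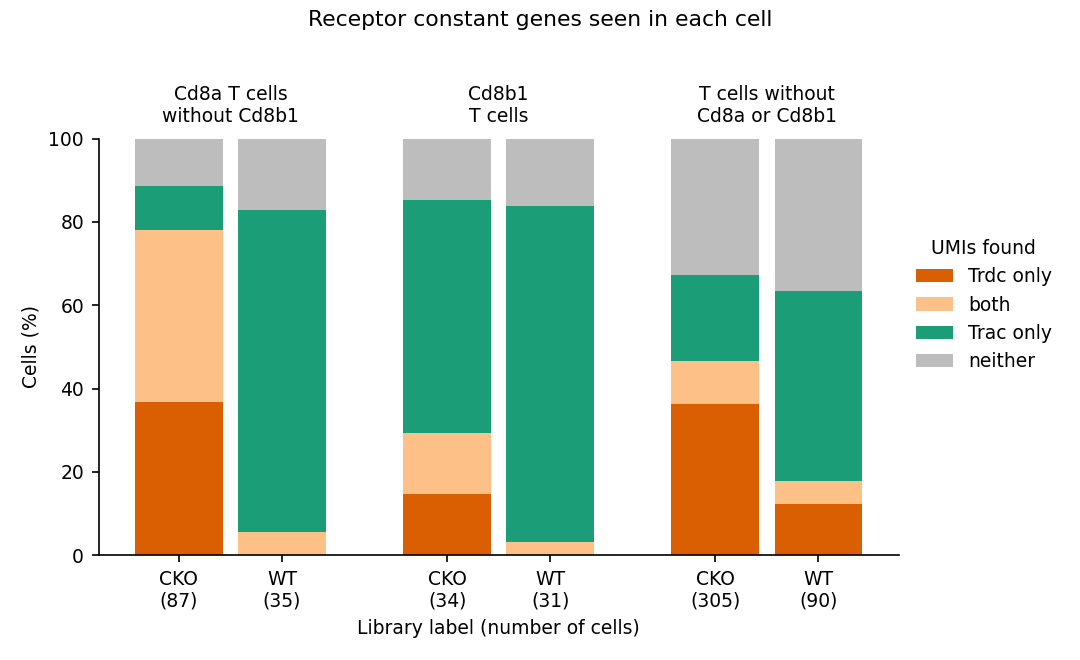
Share of cells (%, vertical axis) with UMIs of Trdc alone, of both genes, of Trac alone and of neither among Cd8a T cells without Cd8b1, Cd8b1 T cells and T cells without a coreceptor transcript, the CKO library left of the WT library in each pair. Cells with Trdc alone make up 36.8% of the 87 Cd8a T cells without Cd8b1 in the CKO library and 0 of the 35 in the WT library.

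The difference was also present at equal depth. After each cell was thinned to 1000 UMIs, Trdc was found in 39.1% (28.8 to 50.1%) of the cells in the CKO library and 0% (0 to 10.0%) in the WT library, and Trac in 10.3% (CKO) and 45.7% (WT). In the B cell gate of the same libraries, cells that should lack both genes, the thinned shares were 0.112% (CKO) and 0.0690% (WT) for Trdc and 0.112% (CKO) and 0.276% (WT) for Trac. Unthinned, these were 0.259% (CKO) and 0.333% (WT) for Trdc and 0.741% (CKO) and 2.33% (WT) for Trac, at median depths of 3231 (CKO) and 4352 UMIs (WT). The shares in the described cells lay above these levels for Trdc in the CKO library and for Trac in both. The other T cells differed in the same direction: 46.6% of T cells without a coreceptor transcript in the CKO library and 17.8% in the WT library had a Trdc UMI, and 29.4% (CKO) and 3.23% (WT) of Cd8b1 T cells did.

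Among the gamma chain genes, Tcrg-C1 was higher in the CKO library and Tcrg-C4 was at a similar level in both. Tcrg-C1 (chr13:19214103-19217024, plus strand), a gamma constant gene, was at 289 CPM in the CKO library and 38.2 CPM in the WT library, a log2 ratio of 2.92 (1.84 to 4.26). Tcrg-C2 was at 102 (CKO) and 43.7 CPM (WT) and Tcrg-C4 at 95.8 (CKO) and 87.4 CPM (WT); the gamma constant genes are close copies of each other, so the split of reads among them is uncertain. Of the gamma variable genes, Trgv2 (chr13:19336573-19337167, minus strand) had 28 UMIs in 22 cells in the CKO library and 5 UMIs in 4 cells in the WT library. Tcrg-V7 (chr13:19178024-19178492, plus strand), which many gamma-delta cells of the intestinal epithelium use, had 11 UMIs in 9 cells in the CKO library and 0 in the WT library. Together the gamma variable genes gave 49 UMIs in 32 of 87 cells (CKO) and 7 UMIs in 6 of 35 cells (WT), and the delta variable genes gave 9 UMIs in 8 cells (CKO) and 0 (WT). Gamma variable transcripts were not confined to cells with Trdc. In Cd8b1 T cells they gave 5 UMIs in 4 of 34 cells (CKO) and 15 UMIs in 10 of 31 cells (WT). Of the latter, 14 UMIs in 9 cells were of Trgv2, while 1 of the 31 cells had a Trdc UMI. Both libraries also held transcripts of the beta chain constant genes, Trbc1 at 643 CPM (CKO) and 350 CPM (WT) and Trbc2 at 812 CPM (CKO) and 1344 CPM (WT), which are near-identical copies.

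Gzma, Gzmb, Itgae and Klra5 were higher in the CKO library and were found in a larger share of its cells. Gzma (chr13:113093825-113100981, minus strand), a granule protease, had a median of 33 UMIs per cell and a highest of 374 in the CKO library, where 62 of 87 cells had a UMI and 38 had at least 50. Its median was 0 in the WT library, the highest 332, and 9 of 35 cells had a UMI. The summed levels were 9380 CPM (CKO) and 2857 CPM (WT), and in the WT library 3 cells held 86.4% of the UMIs. Gzma was thus a gene of most cells in the CKO library and of few in the WT library. After thinning, 64.4% (CKO) and 22.9% (WT) of the cells had a Gzma UMI, against 1.47% (CKO) and 1.52% (WT) in the B cell gate; unthinned, the share was 71.3% (CKO) and 25.7% (WT), against 4.50% (CKO) and 6.79% (WT) in the B cell gate.

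Gzmb, a further granule protease, had a median of 7 UMIs (highest 56) in the CKO library and 0 (highest 51) in the WT library, at 1778 (CKO) and 1038 CPM (WT). Itgae (chr11:73090583-73147446, plus strand) had a median of 2 UMIs (highest 11) in the CKO library and 0 (highest 11) in the WT library, at 342 (CKO) and 213 CPM (WT). Klra5 (chr6:129898996-129917650, minus strand), a Ly49 family receptor of natural killer cells, had a median of 0 in both libraries and a highest of 13 UMIs in the CKO library and 7 in the WT library, at 273 (CKO) and 43.7 CPM (WT). After thinning, an Itgae UMI was found in 32.2% (22.6 to 43.1%, CKO) and 22.9% (10.4 to 40.1%, WT) of the cells, against 0.112% (CKO) and 0.207% (WT) in the B cell gate. A Klra5 UMI was found in 18.4% (10.9 to 28.1%, CKO) and 2.86% (0.0723 to 14.9%, WT), against 0% in the B cell gate of both. The intervals of the 2 libraries overlapped for Itgae and for Klra5 at this depth. The ranges of single cells overlapped in all of these genes, since each library held cells at 0. The Ly49 genes are close copies of each other, so reads may be split among them: Klra7 went the other way, at 22.6 CPM (3 cells) in the CKO library and 120 CPM (7 cells) in the WT library. Perforin (Prf1), which opens the target membrane for granzymes, had 14 UMIs (26.3 CPM) in the CKO library and 2 UMIs in the WT library.

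Other genes were found in most cells of both libraries. Ccl5, a chemokine, had UMIs in 84 of 87 (CKO) and 31 of 35 cells (WT), at 9532 (CKO) and 6549 CPM (WT), and Ikzf2, the transcription factor Helios, had UMIs in 82 (CKO) and 29 cells (WT), at 1060 (CKO) and 1557 CPM (WT). Cd7 (chr11:121036747-121039418, minus strand), a surface protein of T and natural killer cells, had UMIs in 79 (CKO) and 25 cells (WT), with medians of 7 (CKO) and 3 (WT) UMIs per cell and 1524 (CKO) and 716 CPM (WT). Tyrobp and Fcer1g, the signalling adaptors of natural killer receptors, were at 1135 (CKO) and 202 CPM (WT) and at 1473 (CKO) and 448 CPM (WT). Both are also abundant in myeloid cells, and without cells holding other lineages' markers they were at 869 (CKO) and 122 CPM (WT) and at 1227 (CKO) and 377 CPM (WT). The difference between the libraries in these adaptors was therefore also present once cells holding such markers were left out. The list of 5 natural killer cell markers gave 53 UMIs in 36 of 87 cells (CKO) and 11 UMIs in 6 of 35 cells (WT). These UMIs came from Klrb1c, Klre1 and Eomes, while Ncr1 and Klra8 had 0 UMIs in both libraries.

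**Figure D2:**
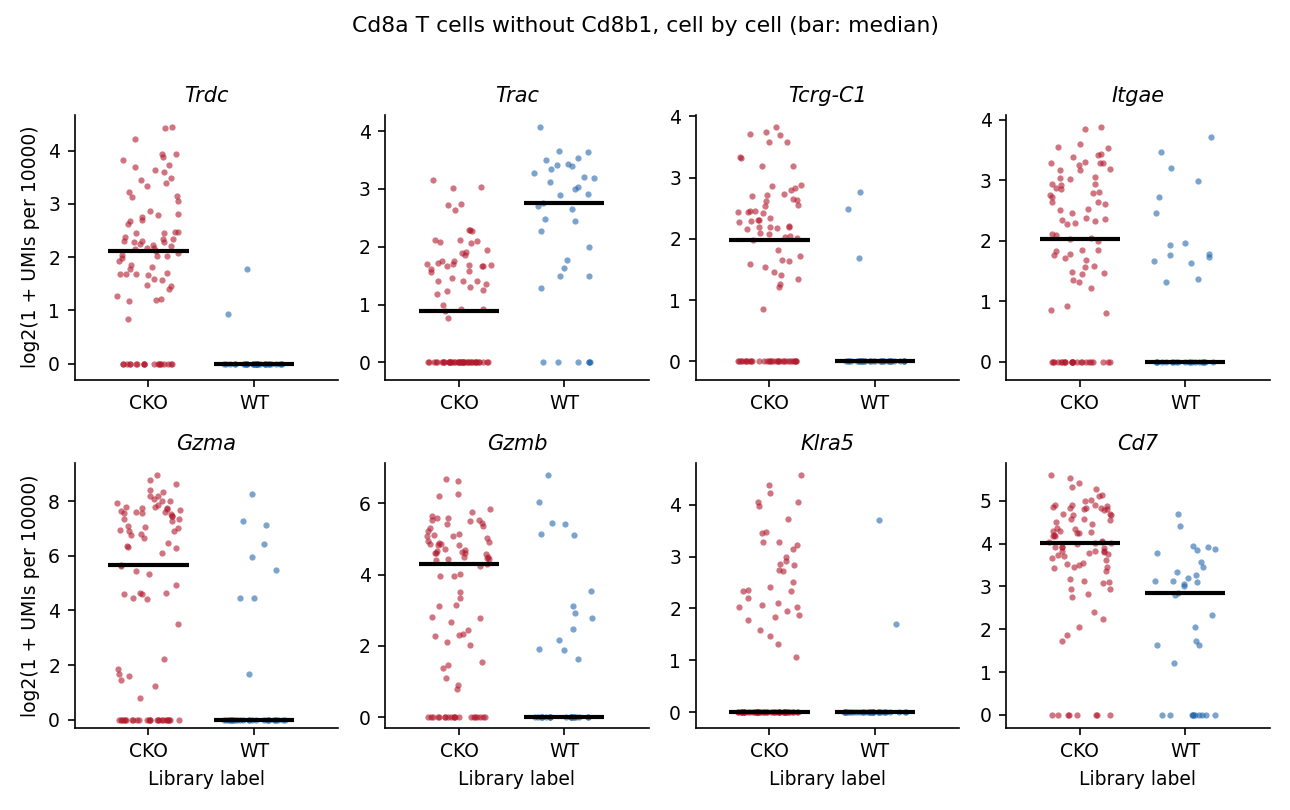
Each point is 1 Cd8a T cell without Cd8b1, with its level of a gene as log2(1 + UMIs per 10000 UMIs of the cell) on the vertical axis, for Trdc, Trac, Tcrg-C1, Itgae, Gzma, Gzmb, Klra5 and Cd7; the CKO library (87 cells) stands left of the WT library (35 cells) and bars mark medians. Gzma has a median of 33 UMIs per cell in the CKO library and 0 in the WT library, while single cells of both reach over 300 UMIs.

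Within the CKO library, the 68 cells with a Trdc UMI and the 19 without had similar levels of Gzma, Itgae, Klra5 and Ikzf2. Gzma was at 9537 CPM with Trdc and 8794 CPM without it, Itgae at 350 CPM with it and 311 without, Klra5 at 291 CPM with it and 205 without, and Ikzf2 at 1099 CPM with it and 916 without. The log2 ratios of cells with Trdc over cells without it were 0.12 for Gzma and 0.17 (-0.37 to 0.75) for Itgae. Of 3181 genes read, 266 were at least 2-fold higher and 234 at least 2-fold lower in the cells with Trdc, with a median log2 ratio of 0.03, each gene being read where at least 5 UMIs were expected in both sums. Cells with Trdc were higher in Tcrg-C1 (338 against 107 CPM), in Cd200r2, an activating relative of the CD200 receptor (172 against 62.2 CPM), in the residence chemokine receptor Cxcr6 (174 against 62.2 CPM), and in Ccr9, the receptor that guides cells to the gut (20 UMIs against 0). They were lower in interferon-gamma, Ifng (40.5 against 267 CPM, log2 ratio -2.72, -3.67 to -1.81), and in the survival receptor Il7r (11.9 against 97.8 CPM). The Ifng UMIs lay in few cells. Of all 87 cells, 8 held 85.1% of them, and among the cells without Trdc 1 held 13 UMIs and another 9. The cells without Trdc also held more neutrophil transcripts, S100a8 at 417 CPM with Trdc and 2276 CPM without it; the part of these in the other differences was not tested. All of this compares cells of 1 library by genes measured in the same cells, and no test was made.

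The difference between the libraries was also present in the cells without Trdc. Over 19 cells (CKO) and 33 cells (WT), Gzma was at 8794 (CKO) and 1137 CPM (WT), a log2 ratio of 2.95 (2.73 to 3.18), Itgae at 311 (CKO) and 137 CPM (WT; 1.18, 0.39 to 2.01) and Cd7 at 1138 (CKO) and 601 CPM (WT; 0.92, 0.53 to 1.31). Klra5 was at 205 CPM (CKO) and 47.6 CPM (WT), a log2 ratio of 2.10 (0.89 to 3.47). Trac itself was at 97.8 CPM (CKO) and 559 CPM (WT) in these cells, so the cells without a Trdc UMI in the CKO library were not a matched set of Trac cells: 9 of the 19 had a Trac UMI, against 27 of the 33 in the WT library. Of the 2 cells with Trdc in the WT library, 1 held 332 of that library's 523 Gzma UMIs.

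The next comparison set the cells against Cd8b1 T cells of the same library. The choice itself separates the 2 groups by Cd8b1, so the differences are a description. Genes were read where at least 5 UMIs were expected in each sum at the pooled rate, and counted at 2-fold or more. In the CKO library, 771 of 6018 genes (12.8%) were higher in the Cd8a T cells without Cd8b1 and 502 (8.34%) were lower. Of the Cd8b1 T cells, 18 of 34 (52.9%) in the CKO library held at least 3 UMIs of other lineages' markers, against 31.0% of the Cd8a T cells without Cd8b1, and the part of this in the counts was not tested beyond the values without such cells.

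The 12 higher genes named in the CKO library were Osgin1 (5.28), Cd7, Klra5, Myo1e (4.09), Car2, Ttc3, Cd200r2, Kit, Capn3, Sft2d2, Cd200r4 (3.32) and Irs2 (3.05). Cd7 was at 1524 CPM, against 51.2 CPM in Cd8b1 T cells of the CKO library, a log2 ratio of 4.90 (4.19 to 5.71). The WT library gave a ratio of 1.48 (0.98 to 2.0), from 716 against 257 CPM. Car2, a carbonic anhydrase, was at 562 against 35.2 CPM (4.0) in the CKO library and at 257 against 34.3 CPM (2.90) in the WT library. Kit, the stem cell factor receptor, was at 147 against 12.8 CPM (CKO) and 169 against 34.3 CPM (WT). Helios followed, with log2 ratios of 2.37 (CKO) and 2.07 (WT), as did the survival gene Bcl2, with 2.16 (CKO) and 1.36 (WT), and the chemokine Xcl1, with 2.20 (CKO) and 2.26 (WT). Cd7, Car2, Kit, Ikzf2, Bcl2 and Xcl1 were higher than in Cd8b1 T cells in both libraries.

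Klra5, Cd200r2 and Capn3, a calcium-dependent protease, had no UMI in Cd8b1 T cells of either library. Against a floor of 3 counts over the group, they were at least 28.4-fold, 15.5-fold and 10.8-fold higher in the Cd8a T cells without Cd8b1 of the CKO library. Klrb1a, a further natural killer receptor, was also at 0 in those cells and was at least 6.66-fold higher in the CKO library. Tyrobp and Fcer1g had log2 ratios of 0.55 and 0.83 in the CKO library with all cells. Without cells holding other lineages' markers, both genes had 0 UMIs in the 16 remaining Cd8b1 T cells of that library, against 258 UMIs of Tyrobp and 364 of Fcer1g in the 60 remaining Cd8a T cells without Cd8b1.

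Cd5, Cd28, Cd2, Cd6 and Lat, which act in or beside T cell receptor signalling, were lower than in Cd8b1 T cells in the CKO library. Cd5, a brake on receptor signalling (chr19:10717116-10739002, minus strand), had 2 UMIs in 2 of 87 cells, against 29 UMIs in 13 of 34 Cd8b1 T cells, in the CKO library, a log2 ratio of -4.62 (-7.74 to -2.64). For the WT library it was 8 UMIs in 4 of 35 cells, against 33 UMIs in 17 of 31 Cd8b1 T cells, a log2 ratio of -2.11 (-3.43 to -0.97). Cd5 was thus scarcer in the Cd8a T cells without Cd8b1 than in Cd8b1 T cells of both libraries. In the WT library this was shared with T cells without a coreceptor transcript, of which 12.2% had a Cd5 UMI, against 11.4% of the described cells. In the CKO library the shares were 11.1% and 2.30%. Cd28, the main costimulatory receptor, had log2 ratios of -3.44 (CKO) and -2.10 (WT), and the adhesion receptor Cd2 had -3.20 (CKO) and -0.80 (WT, -1.73 to 0.09). Cd6, a relative of Cd5 (chr19:10789341-10830058, minus strand), had -2.66 (CKO) and -0.84 (WT), and the adaptor Lat -2.42 (CKO) and -1.31 (WT). Of the 23 genes of the T cell receptor signalling list read in the CKO library, 9 were lower and 3 higher at 2-fold, with a median log2 ratio of 0.11 beside 0.01 over all genes read. Of all genes read, 8.34% were lower and 12.8% higher. The receptor-proximal kinases Lck and Zap70 were at 0.14 and 0.17. Of 8 genes of the receptor and CD3 complex read there, without the CD3 genes of the gate, 4 were higher and 0 lower (median 1.32). The 4 were the gamma and delta constant genes Tcrg-C1 (4.50), Tcrg-C4 (3.91), Trdc (2.14) and Tcrg-C2 (1.82). The 9 lower signalling genes were Cd5, Cd28, Cd2, Themis, Cd6, Sh2d1a, Lat, Ubash3a and Prkcq.

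The 12 lower genes named in the CKO library were Klrc1, Ifit1, Tnip3, Cd28, Lgals1, Cd2, Ifng, Gramd3, Ctla2a, Atf3, Sh3kbp1 and Ccr7. Among them was Lgals1, a galectin of activated T cells, at 117 against 1238 CPM (-3.41, with -3.08 in the WT library), and the inhibitory receptor gene Klrc1 was at 7.52 against 125 CPM (-4.05, with -2.19 in the WT library). Ifng was at 88.3 against 672 CPM (-2.93, with -3.97 in the WT library) and Gzmk, a granzyme of circulating memory cells, at 5.64 against 79.9 CPM (-3.83, with -2.51 in the WT library). Gzma and Gzmb did not follow one direction in both libraries. Gzma had log2 ratios of 2.57 (CKO) and 0.09 (WT, -0.10 to 0.27), and Gzmb 0.24 (CKO) and -0.93 (WT); without cells holding other lineages' markers they were 1.51 (CKO) and -1.49 (WT), and -0.36 (CKO) and -1.86 (WT). The higher level of Gzma than in Cd8b1 T cells was therefore seen in the CKO library and not in the WT library, a difference that was not tested.

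**Figure D3:**
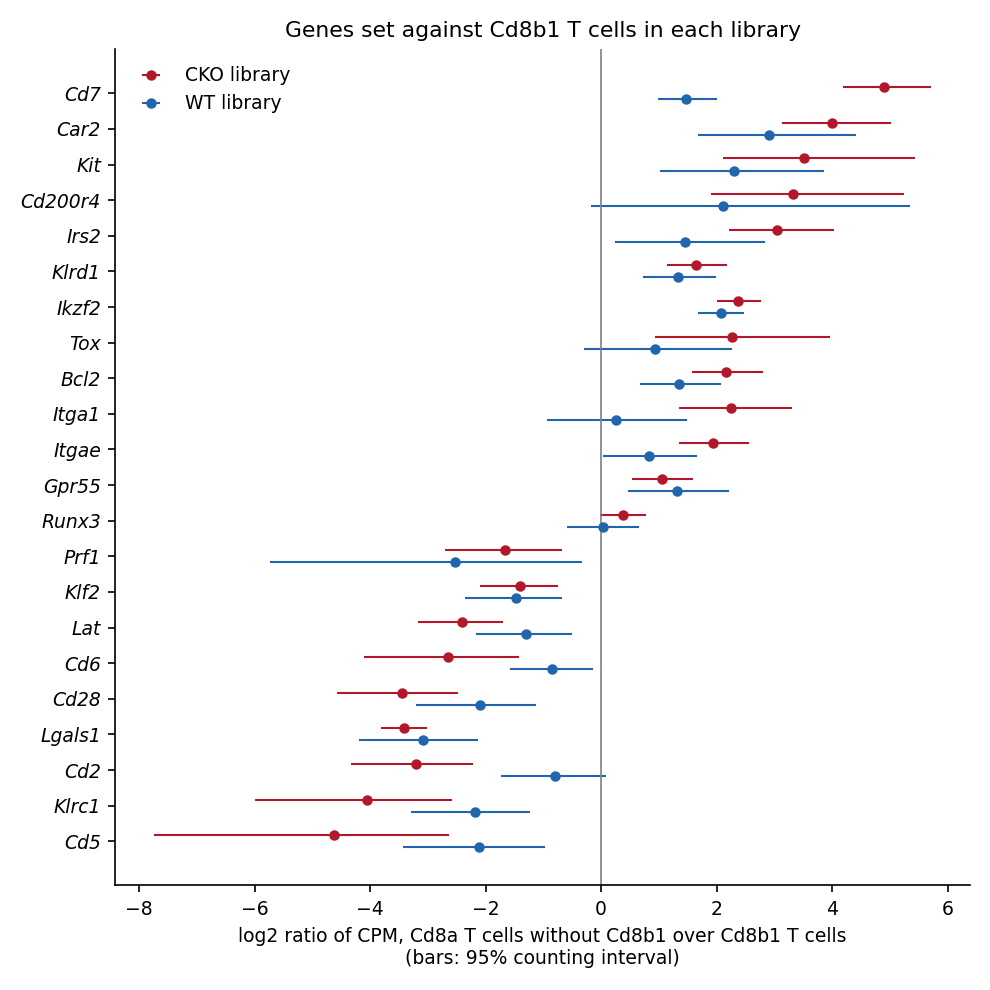
Log2 ratio (horizontal axis) of Cd8a T cells without Cd8b1 over Cd8b1 T cells for 22 genes, with exact 95% intervals for counting error, in the CKO library and in the WT library. Cd7 stands at 4.90 (CKO) and 1.48 (WT) and Cd5 at -4.62 (CKO) and -2.11 (WT), on opposite sides of 0.

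By list, 10 of 20 intraepithelial lymphocyte genes read were at least 2-fold higher than in Cd8b1 T cells in the CKO library and 0 were lower, with a median log2 ratio of 0.94. Cd7, Cd244a (3.48), Cd101 (2.46) and Ikzf2 led them. Of 15 tissue residence genes, 8 were higher and 0 lower (median 1.05), among them Rgs1, a brake on chemokine receptor signals, at 2227 against 326 CPM (2.77), and the collagen-binding integrin chain Itga1 (2.25); the 2 lists share some genes. Of 9 genes of egress and the naive state, 8 were lower and 0 higher (median -1.81), with S1pr1, the receptor that leads T cells out of tissue, at -3.27, Ccr7 at -2.55 and Klf2 at -1.41. The median over all genes read was 0.01, with 12.8% of them higher and 8.34% lower. In the WT library, 4 of 17 intraepithelial lymphocyte genes were higher and 1 lower than in Cd8b1 T cells (median 0.26). Of 15 tissue residence genes, 3 were higher and 3 lower there (median 0.03), and of 8 genes of egress and the naive state 0 were higher and 5 lower (median -1.38). Of 19 type I interferon-stimulated genes read in the CKO library, 11 were lower and 0 higher (median -1.03), led by Ifit1 at 15.0 against 237 CPM. For the WT library, 13 of 18 were lower and 0 higher (median -1.48). Among 13 checkpoint and costimulation genes read in the CKO library, 5 were higher, including Lag3 (3.69), and 5 lower, including Tnfrsf4 (-4.41) and Icos (-2.37). For the WT library, 3 of 8 were higher and 1 lower.

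In the WT library, 8.97% of the 4078 genes read were higher and 12.9% lower than in Cd8b1 T cells. Of the 12 higher genes named in the CKO library, 9 were read in the WT library, 8 of those lay on the same side and 7 were at least 2-fold. Of the 12 lower genes, 10 were read, 10 lay on the same side and 7 were at least 2-fold. The genes were named in the CKO library, so these counts compare a second library with it and carry no test. Named again without cells holding other lineages' markers, 2 of the 12 higher genes were the same, Cd7 and Car2, and 4 of the 12 lower genes, Klrc1, Lgals1, Cd2 and Cd28.

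Set against T cells without a coreceptor transcript in the CKO library, 386 of 7387 genes read (5.23%) were at least 2-fold higher and 592 (8.01%) lower. These 305 cells held a median of 4283 UMIs, and 143 of them (46.9%) held at least 3 UMIs of other lineages' markers. Among the higher genes were Gzma at 9380 against 1240 CPM (2.92, 2.85 to 2.99), Gzmb at 1778 against 466 CPM (1.93), Itgae at 342 against 77.7 CPM (2.14) and Cd7 at 1524 against 431 CPM (1.82). The same genes had log2 ratios in the WT library of 2.58 (Gzma), 1.40 (Gzmb), 1.56 (Itgae) and 0.89 (Cd7). All 4 lay above 0 in both libraries; in the WT library, without cells holding other lineages' markers, Gzma was at 0.79 and Itgae at 0.80 (-0.13 to 1.69). Of 15 tissue residence genes read in the CKO library, 6 were higher and 0 lower (median 0.53). Of 18 cytotoxic granule genes, 3 were higher and 4 lower (median -0.04), with Gzmc, a further granzyme, at -3.13 and Prf1 at -1.46. Cd200r2, at 148 against 19.0 CPM, had the highest ratio of the named genes, 2.96 (2.37 to 3.58).

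Proliferation genes were also higher than in T cells without a coreceptor transcript in the CKO library. Of 19 cell cycle genes read, 12 were at least 2-fold higher and 0 lower, with a median of 1.28 beside 0.00 over all genes read. Of all genes read, 5.23% were higher and 8.01% lower. Mki67, a marker of dividing cells, was at 256 against 108 CPM (1.24), with UMIs in 23 of 87 and 43 of 305 cells, and the histone gene Hist1h2ae at 389 against 56.5 CPM (2.78). Histone transcripts without a poly(A) tail are captured poorly by 3′ kits, and few cells carried them: Hist1h2ae had UMIs in 25 of the 87 cells. In the WT library, 4 cell cycle genes were read against T cells without a coreceptor transcript, and 0 were 2-fold higher or lower. Against Cd8b1 T cells of the CKO library, 0 of 19 cell cycle genes were 2-fold higher or lower (median 0.04). Of all genes read there, 12.8% were higher and 8.34% lower.

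Several genes of cytokines and their receptors were lower than in T cells without a coreceptor transcript. Ifng was at 88.3 against 1304 CPM in the CKO library (-3.88, -4.33 to -3.47) and had 1 UMI in the WT library, against 37 (-3.76, -9.10 to -1.19). Areg, a repair factor, had log2 ratios of -3.04 (CKO) and -5.99 (WT), and Csf2, a growth factor of myeloid cells, -3.63 (CKO) and -5.70 (WT). Over all genes read in this comparison in the CKO library, 8.01% were lower and 5.23% higher. Of the cytokine genes read in the CKO library, 6 of 12 were lower and 0 higher (median -1.04), and 8 of 19 cytokine receptor genes were lower and 0 higher (median -0.86), with Il18r1 at -2.74, Il7r at -2.33 and Il2ra at -2.26. Low Ifng, Areg, Csf2 and Il7r were common to both libraries, with Il7r at -2.50 in the WT library. The T cells without a coreceptor transcript are a mixed group. Marker genes of group 2 innate lymphocytes gave 200 UMIs in 34 of 305 of them (CKO) and 295 UMIs in 20 of 90 (WT, 131 in 1 cell). The described cells held 8 (CKO) and 2 (WT) such UMIs, and the part of this in the ratios was not tested. Of 26 natural killer receptor genes read, 12 were lower and 2 higher in the CKO library (median -0.90): Klra5 at 1.78 and Klrb1a at 1.92 were higher, while Klrc1 was at -3.65, Klrg1 at -3.07 and Klrk1, the NKG2D receptor, at -1.40.

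In the WT library, 5.10% of the 4176 genes read were higher and 11% lower than in T cells without a coreceptor transcript. All 12 lower genes named in the CKO library were read there and lay on the same side, 9 of them at 2-fold or more. Of the 12 higher genes, 5 were read, 5 lay on the same side and 3 were at least 2-fold. Without cells holding other lineages' markers, 7 of the 12 higher and 4 of the 12 lower genes were named again, Gzma, Gzmb and Cd200r2 among the higher and Ifng, Cd2, Il2ra and Il7r the lower. In the NK gate of the CKO library, used for comparison, 71.4% of cells had a Gzma UMI after thinning, against 64.4% of the Cd8a T cells without Cd8b1, while 0.408% against 32.2% had an Itgae UMI and 0% against 18.4% had a Klra5 UMI.

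The last comparison set the cells of the CKO library against those of the WT library. Of 4435 genes read, 722 (16.3%) were at least 2-fold higher and 183 (4.13%) at least 2-fold lower, and the median log2 ratio was 0.10. The 12 highest genes by the naming rule were Thbs1, Ifitm3, Hist1h1b, Tnfaip2, Tgfbi, Pcyt1a, Lyz2, S100a6, Pclaf, Il1b, Clec4e and Il1rn. Most of them are genes of monocytes and macrophages: Lyz2, lysozyme, was at 812 CPM in 13 cells (CKO) and 21.9 CPM in 2 cells (WT), and Il1b, a cytokine of phagocytes, at 2005 CPM in 27 cells (CKO) and 71.0 CPM in 5 cells (WT). Monocyte and macrophage markers, given above, were likewise higher in the CKO library. Lyz2 is itself among the other lineages' markers by which cells were left out, so that step lowers its level by construction. In the remaining 60 (CKO) and 19 (WT) cells, Thbs1, Tgfbi and Il1rn were at 0 UMIs in the CKO library. Lyz2 was at 13.5 CPM (CKO) and 10.2 CPM (WT) there, and Il1b at 40.4 CPM (CKO) and 10.2 CPM (WT). Ifitm3, at 912 CPM in the CKO library and 0 in the WT library (at least 55.6-fold higher), was at 37.1 CPM in those cells of the CKO library.

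**Figure D4:**
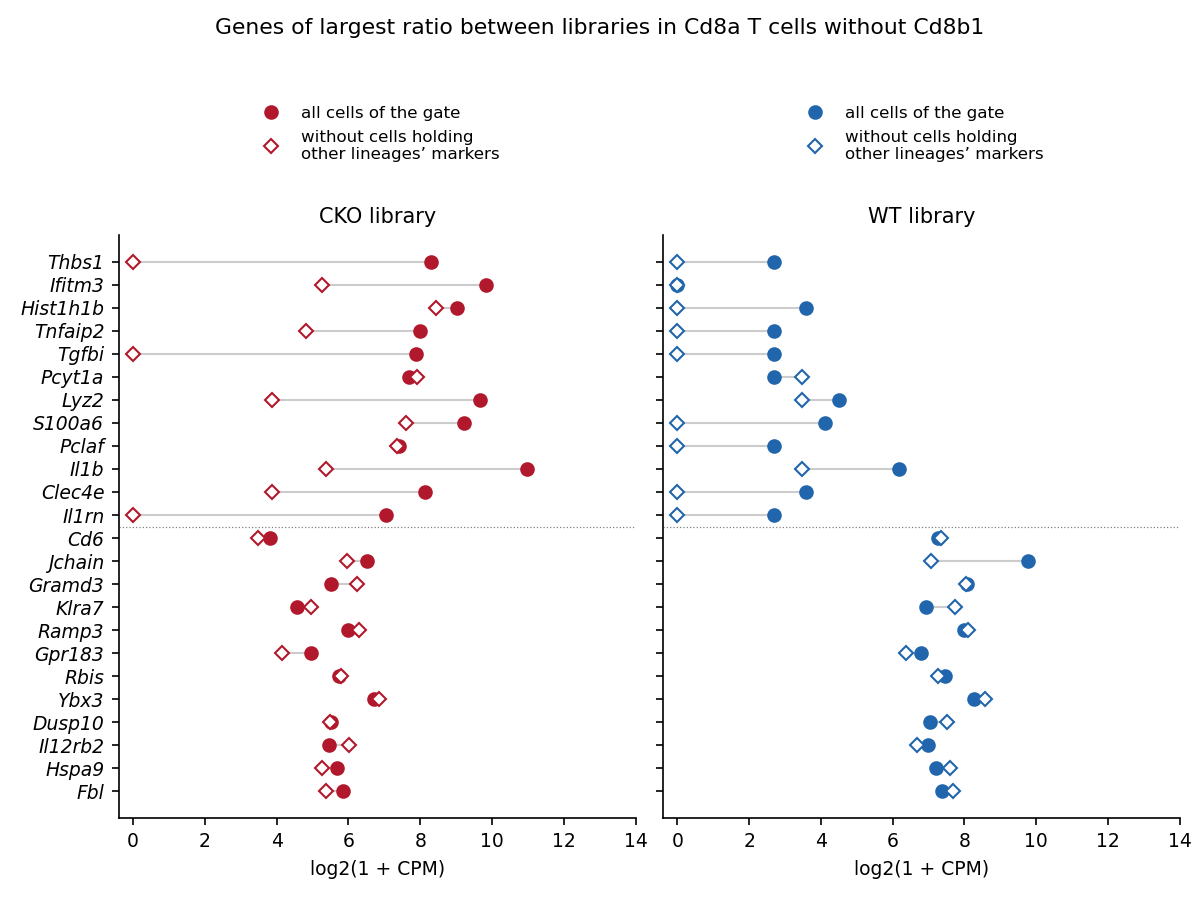
Levels as log2(1 + CPM) (horizontal axis) of the 24 genes named in Cd8a T cells without Cd8b1 of the CKO library over those labelled WT, CKO in the left panel and WT in the right; filled points use all cells and open diamonds leave out cells with at least 3 UMIs of other lineages' markers. Thbs1, at 314 CPM with all cells of the CKO library, is at 0 without those cells, while Pcyt1a in that library is at 205 CPM with all cells and 239 CPM without them. Lyz2 and Jchain are themselves among the markers used to leave out cells.

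Named again without those cells, a step added after seeing the data, 2 of the 12 higher genes were the same, Pcyt1a and Hist1h1b. Pcyt1a, an enzyme of phosphatidylcholine synthesis, was at 205 CPM in 43 of 87 cells (CKO) and had 1 UMI in the WT library, a log2 ratio of 5.23 (2.72 to 10.55), or 4.55 (2.03 to 9.88) without them. The other 10 then named were Mki67 (4.65), Ppp6r1, Ifng (3.49, from 34 UMIs against 1), Gzma (3.45), Fgl2 (3.43), Hist1h2ae, Top2a, Dapk2, Stmn1 and Egr1. Of these, Gzma was at 9652 CPM in 40 of 60 cells (CKO) and 886 CPM in 5 of 19 cells (WT). With all cells the log2 ratio of Gzma was 1.72 (1.58 to 1.85). Gzmb had 0.78 with all cells and 1.81 without them, Cd7 1.09 and 1.6, Itgae 0.68 and 1.2, and Klra5 2.64 and 1.61. All 5 of these genes were higher in the CKO library either way.

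Among the 12 lowest genes, Cd6 was at 13.2 CPM (7 of 87 cells) in the CKO library and 153 CPM (13 of 35 cells) in the WT library, a log2 ratio of -3.54 (-4.98 to -2.31). Jchain, a plasma cell gene, was at 90.2 (CKO) and 874 CPM (WT), a log2 ratio of -3.28. Without cells holding other lineages' markers it was at 60.7 (CKO) and 132 CPM (WT). Jchain is among those markers, so leaving the cells out lowers it by construction. Gramd3 (-2.57), Klra7 (-2.41), Ramp3 (-2.02), the oxysterol receptor Gpr183 (-1.86), Rbis, Ybx3, Dusp10, the interleukin-12 receptor chain Il12rb2, Hspa9 and Fbl completed the set. The low level of Cd6 was seen in single cells of the CKO library as at most 1 UMI per cell. Cd2 (-2.39), Cd28 (-1.68) and Lat (-1.33) were lower as well, and 5 of 17 T cell receptor signalling genes read were at least 2-fold lower and 1 higher (median -0.15). Of all genes read, 4.13% were lower and 16.3% higher.

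By list, 11 of 16 cell cycle genes read were at least 2-fold higher in the CKO library and 0 lower (median 1.70 beside 0.10 over all genes read). Mki67 was at 256 CPM in 23 of 87 cells (CKO) and 21.9 CPM in 4 of 35 cells (WT), a log2 ratio of 3.55 (2.16 to 5.44), and Top2a, a topoisomerase of dividing cells, at 199 CPM in 19 cells (CKO) and 27.3 CPM in 5 cells (WT). Without cells holding other lineages' markers, Mki67 was at 256 CPM in 10 of 60 cells (CKO) and 10.2 CPM in 1 of 19 cells (WT). Cells with an Mki67 UMI were a minority in both libraries. Of 20 intraepithelial lymphocyte genes, 7 were higher and 1, Ahr, was lower (median 0.70), and of 14 natural killer receptor and adaptor genes 7 were higher and 3 lower (median 0.91). Of 14 cytotoxic granule genes 3 were higher, Gzma, Ctsc and Tnfsf10, and 0 were lower (median 0.60), beside 16.3% higher and 4.13% lower over all genes read. Of 15 tissue residence genes, 2 were higher, Prdm1 and Itga1, and 2 lower, Gpr34 and Ahr (median 0.46).

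The genes of cell death, which the study's title concerns, were as follows. Of 9 necroptosis genes read in the comparison of the libraries, 2 were at least 2-fold higher and 0 lower (median -0.01), beside 16.3% higher and 4.13% lower over all genes read. Ripk1, a kinase that starts the process, was at 48.9 CPM (CKO) and 49.2 CPM (WT), a log2 ratio of -0.01 (-1.15 to 1.27); Ripk3 and Mlkl had too few UMIs to be read. The 2 higher genes, the sensor Zbp1 (1.28) and the caspase-8 inhibitor Cflar (1.54), were at -0.06 (-1.14 to 1.14) and -0.46 (-2.10 to 1.42) without cells holding other lineages' markers. Of 10 genes of the BCL2 family and apoptosis, 6 were higher and 0 lower (median 1.08), with Bcl2 at 387 CPM (CKO) and 366 CPM (WT) and Mcl1 at 485 CPM (CKO) and 202 CPM (WT, log2 ratio 1.26, or 0.56 without those cells). Of 8 genes of DNA damage and p53 targets, 4 were higher and 0 lower (median 0.91); the cell cycle inhibitor Cdkn1a was at 2.98 (1.83 to 4.46), or 1.86 (-0.16 to 5.0) without those cells, and the p53 target Trp53inp1 at 1.01, or 1.30.

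**Figure D5:**
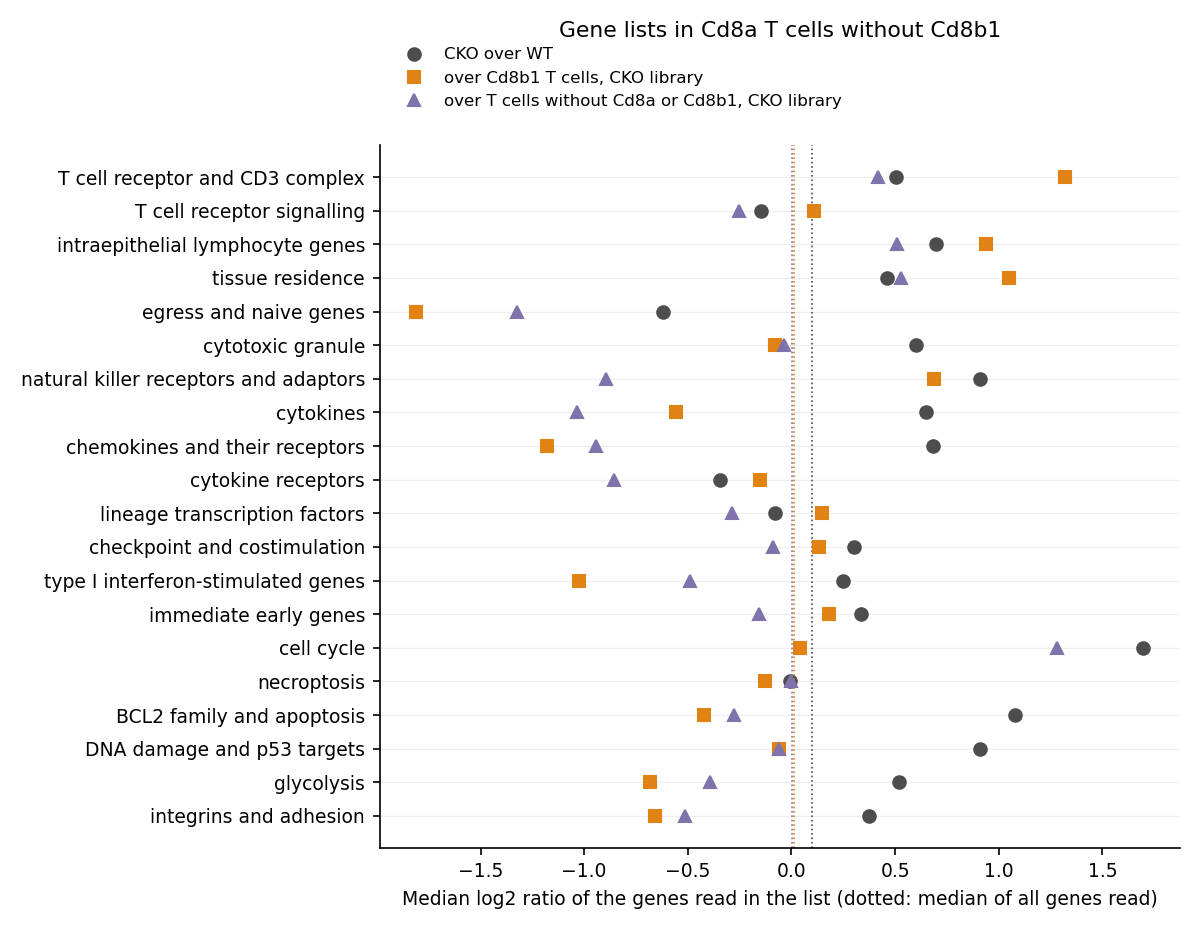
Median log2 ratio (horizontal axis) of each gene list in Cd8a T cells without Cd8b1 of the CKO library over those labelled WT, and, within the CKO library, over Cd8b1 T cells and over T cells without a coreceptor transcript; dotted lines mark the median of all genes read. The cell cycle list stands at 1.70, 0.04 and 1.28 and the egress and naive list at -0.62, -1.81 and -1.33 in these comparisons.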

How the data were processed

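The deposited matrices hold UMI counts per gene and cell barcode, not normalized, and were written by Cell Ranger 6.0.1 per the file headers. The submitters' processing notes name mm10, Seurat 3.2.3 and Cell Ranger 5.0.0. Those notes name no step that removed doublets. Cells with at least 200 genes and at most 20% mitochondrial UMIs were kept, without clustering, and sorted by the UMIs of named genes. UMIs were summed over the cells of each group in each library and scaled to CPM; ratios of sums carry exact conditional intervals. A gene was read if the pooled rate gave an expected count of at least 5 in both sums, and counted at a 2-fold difference; a group at 0 was set to a floor of 3 counts. Doublets were called with Scrublet per library at an expected rate of 0.8% per 1000 cells, and kept. The NK gate took cells with at least 2 UMIs of Ncr1 and Klrb1c and none of the CD3 or B cell genes, and the B cell gate took cells with at least 2 UMIs of Cd79a and Ms4a1 and none of the CD3 genes. Cells below the thinning depth of 1000 UMIs were left out of thinned shares, 44 (CKO) and 53 (WT) of the B cell gate and none of the cells described.

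For each comparison the 12 highest and 12 lowest ratios were named among genes read with at least 100 CPM and a UMI in at least 10% and 5 cells (3 in the WT library) of the higher group, where no cell held 0.5 or more of the group's UMIs; gene models, ribosomal, mitochondrial, immunoglobulin and receptor segment, sex-linked and gate genes were left out. Also named were the 4 marker genes, Rpa1 and up to 4 members of each of 21 gene lists, of which 328 of 329 symbols matched; further genes were named after their values were seen. The cells and the lists were chosen with earlier results of these data known. Gene coordinates are those of GENCODE vM21 on GRCm38. The log2 ratios, their intervals and the 2-fold call were tested on simulated Poisson sums of known ratio. Such sums lack the spread between cells. The choice of cells, thinning, doublet calling and naming of genes were not part of that test. The alternatives changed the cell filters, the gate, the depth, the cells counted and the filter on low counts; leaving out cells with Trdc and naming genes again without cells holding other lineages' markers were chosen after seeing the data. Python 3.11.15 with numpy 2.4.6, scipy 1.17.1, pandas 2.3.3, scanpy 1.11.5 and matplotlib 3.10.9 was used.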

Additional observations from a re-analysis of the deposited data

Results flagged for a closer look

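The genes below lay on opposite sides of 0 in the CKO library and in the WT library in the same comparison, with both intervals for counting error away from 0; with 1 library per group the difference between the libraries was not tested. Against Cd8b1 T cells, Ccl5 had a log2 ratio of 1.32 (CKO) and -0.55 (WT), Gzmb 0.24 (CKO) and -0.93 (WT), and Ramp3, which modifies calcitonin-family receptors, -0.89 (CKO) and 0.93 (WT). Against T cells without a coreceptor transcript, Cd6 was at -2.08 (CKO) and 1.30 (WT), Pcyt1a at 1.32 (CKO) and -4.17 (WT), Trdc at 0.86 (CKO) and -3.07 (WT), and Tyrobp at 0.29 (CKO) and -0.74 (WT).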

How the results depend on the processing

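No paired analysis was possible because each group is 1 library. Of 83 gene ratios followed, 79 kept their sign under all 11 settings tried that gave a value; of 869 such values, 778 lay within the interval of the main value, and 4 ratios changed sign in 5 values. Hist1h2ap against T cells without a coreceptor transcript, in the CKO library, was at -0.36 with cells holding Trdc left out, against 2.74. Rpa1 for CKO over WT was at -0.14 with at least 2 Cd8a UMIs and -0.23 without cells holding Trdc, against 0.25. Trac in the CKO library was at 0.20 over Cd8b1 T cells at 2000 UMIs per cell, against -0.42, and just below 0 over T cells without a coreceptor transcript without cells holding Trdc, against 0.53. The cause of these turns was not tested. With at least 2 Cd8a UMIs per cell the share of T cells was 8.05% (CKO) and 5.44% (WT), and 115 genes were 2-fold lower in the CKO than the WT library. Without cells holding other lineages' markers the share was 13.3% (CKO) and 8.23% (WT); 361 genes were higher and 112 lower in the CKO than the WT library, and 442 higher and 232 lower than in Cd8b1 T cells. At 2000 UMIs per cell the counts were 249 and 80 for CKO over WT, 285 and 198 over Cd8b1 T cells, and 243 higher than in T cells without a coreceptor transcript. Leaving out the top cell of each gene gave 95 lower genes for CKO over WT. An expected count of at least 10 gave 316 and 65, 387 and 274, and 209 and 335 in the 3 comparisons in that order; no filter gave 1272 and 1240, 1312 and 1233, and 1406 and 1022. Leaving out cells with Trdc, an alternative chosen after seeing the data, gave 473 and 308, 217 and 291, and 73 and 213, from 19 CKO cells. Fewer cells, UMIs or genes enter most of these counts by construction, so the number of genes past 2-fold depends on depth and filter. Genes with few UMIs in the 35 WT cells could not be read.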

Other observations

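Of 11 chemokine and chemokine receptor genes read in the Cd8a T cells without Cd8b1, 4 were at least 2-fold higher and 2 lower in the CKO than the WT library (median log2 ratio 0.68), and of 16 lineage transcription factors 4 were higher and 3 lower (median -0.08), beside 16.3% higher and 4.13% lower over all genes read. Ccl3 and Ccl4, chemokines released on activation, were at 94.0 CPM (CKO) and 21.9 CPM (WT), and at 250.0 CPM (CKO) and 76.5 CPM (WT), log2 ratios of 2.10 (0.66 to 4.04) and 1.71 (0.91 to 2.62), and Cxcr4, a receptor that retains cells in marrow and tissue, was at -1.82 (-2.95 to -0.71). Without cells holding other lineages' markers Ccl4 was at 1.23, Ccl3 had 16 UMIs (CKO) and 0 (WT), and Cxcr4 had 4 UMIs (CKO) and 3 (WT). Tbx21, the factor T-bet of type 1 responses, was at 47.0 CPM (CKO) and 10.9 CPM (WT), a log2 ratio of 2.10 (0.10 to 5.23), while Tcf7, a factor of naive and memory T cells, was at -1.18 and Bcl11b, a factor of T cell identity, at -1.19. Rpa2, a further subunit of replication protein A, was at 75.2 CPM (CKO) and 21.9 CPM (WT), a log2 ratio of 1.78 (0.31 to 3.73).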
